A study of Mus musculus with 19 samples.

Results

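The genes described here are 10 genes of cardiac muscle, Myh6, Myh7, Myl7, Myl4, Actc1, Tnnt2, Tnni1, Tnnc1, Nkx2-5 and Ryr2, in embryoid bodies with fluid-filled cysts (cystic EBs). They were taken by gene symbol from the deposited tables of RefSeq transcripts, where they are 10 of 23337 gene symbols and 21 of 30455 transcript rows. Each gene's values are those of the transcript with most reads on average, out of 10 listed transcripts for Tnnt2, 2 for Myh6, 2 for Tnni1 and 1 for each other gene. The genes were selected on their high expression in cystic EBs, with the RPKM and counts of all 11 libraries known, so these levels are given as a description and without a test. Of the 10 genes, 8 encode parts of the sarcomere, whereas Nkx2-5 encodes a transcription factor and Ryr2 a calcium channel outside the sarcomere.

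The study compared the visceral yolk sac endoderm (ysE), the outer layer of the visceral yolk sac (VYS), with cystic EBs and fetal liver, and asked whether cystic EBs can stand in for ysE. RNA-seq of total RNA depleted of ribosomal RNA was made from 11 libraries, 4 of them of cystic EBs. Bisulfite sequencing of 6 libraries and 1 set of H3K4me3 peaks were used beside it. The cystic EBs of the RNA-seq came from ES cells of a C57Bl/6x129 background, grown without LIF for 10 or 15 days (d10, d15). There was 1 library of clone A9 and 1 of clone JN at each day, the replicate letters A and B standing for A9 and JN. A9 is an XY line and JN an XX line, each a single clone. The tissues were of FVB mice and each sample was a pooled litter, namely E9.25 VYS mesoderm with its vessels (2 libraries), E12.5 liver (2), E9.25 ysE (2) and E12.5 ysE (1). The bisulfite libraries were of E12.5 ysE, E12.5 liver and d15 cystic EBs, 1 of either reciprocal cross of CAST and FVB for each. Those cystic EBs came from the clones CF-C2 and FC-A2, so expression and methylation were measured in different cell lines.

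Counts summed over all transcripts were 47818368 to 110465060 in cystic EBs and 40453779 to 169981821 over the 11 libraries. The A9 and liver libraries were made with the ScriptSeq kit, the JN, mesoderm and E9.25 ysE libraries with the dUTP method, and the E12.5 ysE library without strand information. Clone and library protocol therefore cannot be told apart within cystic EBs. In bulk RNA, fewer cells of a type and less RNA per cell cannot be told apart either. Marker genes were summed to check the labelled tissues. Haemoglobin and other erythroid genes summed to 36351 and 46112 RPKM in mesoderm, against 12.4 to 135 in cystic EBs. They also summed to 2551 and 3885 in liver, 899.5 and 1076 in E9.25 ysE and 237.3 in E12.5 ysE. Afp and other yolk sac endoderm genes summed to 10262 to 42641 RPKM in ysE, against 150 to 1306 in cystic EBs, 1139 and 2029 in mesoderm and 1657 and 2900 in liver. The liver list, which shares Afp, Ttr and Apob with it, summed to 2014 and 3781 RPKM in liver and to 8762 to 40644 in ysE, so it did not mark liver.

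Cardiac muscle contracts when myosin of the thick filament pulls on actin of the thin filament, and calcium bound by troponin lets the heads of myosin reach actin. The early heart tube expresses embryonic and atrial forms of several of these proteins, among them the atrial light chains Myl7 and Myl4 and the slow skeletal troponin I, Tnni1. Nkx2-5 is among the earliest factors of the cardiac lineage, and Ryr2 releases calcium from the sarcoplasmic reticulum at each beat. Beating areas are a familiar sight in embryoid bodies, because cardiac mesoderm is one of the lineages that form in them.

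The sequences around the transcription start are shown for 5 of the genes, Actc1 and Myl7 for a CArG box, Myh6 for a GATA site and TATAAA, Myl4 for its CpGs and H3K4me3 peak, and Nkx2-5 for the methylation around its start. Each runs 5′ to 3′ on the strand of the gene, from 250 bases before to 50 bases after the RefSeq start, on the build GRCm38.p6 (mm10, as in the deposited files). Capitals mark a CArG box (bound by serum response factor), a MEF2 box, a GATA site (AGATAA, where the first letter may also be T and the last also G) or TATAAA, each on either strand. Myh6 lies at chr14:54966558-54966857 on the minus strand, Actc1 at chr2:114052826-114053125 (minus), Myl7 at chr11:5898733-5899032 (minus), Myl4 at chr11:104550413-104550712 (plus) and Nkx2-5 at chr17:26841516-26841815 (minus).
Myh6: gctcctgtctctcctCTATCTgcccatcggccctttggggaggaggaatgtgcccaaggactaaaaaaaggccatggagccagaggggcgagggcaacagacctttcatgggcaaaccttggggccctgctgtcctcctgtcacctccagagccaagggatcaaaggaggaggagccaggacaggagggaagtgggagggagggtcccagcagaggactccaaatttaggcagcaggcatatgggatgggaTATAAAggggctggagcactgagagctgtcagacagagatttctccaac
Actc1: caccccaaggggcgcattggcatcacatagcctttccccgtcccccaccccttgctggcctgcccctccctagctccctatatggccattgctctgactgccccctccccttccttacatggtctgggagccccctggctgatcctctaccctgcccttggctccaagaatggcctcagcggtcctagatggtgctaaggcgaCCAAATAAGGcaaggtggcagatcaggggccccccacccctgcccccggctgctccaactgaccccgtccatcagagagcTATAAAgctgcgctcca
Myl7: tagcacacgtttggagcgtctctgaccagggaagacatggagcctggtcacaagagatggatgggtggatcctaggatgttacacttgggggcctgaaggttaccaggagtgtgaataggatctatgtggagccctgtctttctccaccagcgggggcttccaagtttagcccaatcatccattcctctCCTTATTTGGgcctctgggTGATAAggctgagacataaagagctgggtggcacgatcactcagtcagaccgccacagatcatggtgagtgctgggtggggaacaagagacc
Myl4: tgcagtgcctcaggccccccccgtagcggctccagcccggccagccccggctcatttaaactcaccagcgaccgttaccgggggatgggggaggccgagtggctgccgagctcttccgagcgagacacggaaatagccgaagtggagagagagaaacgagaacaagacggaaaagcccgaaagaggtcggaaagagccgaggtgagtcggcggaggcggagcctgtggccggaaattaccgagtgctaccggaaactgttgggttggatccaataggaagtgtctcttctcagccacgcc
Nkx2-5: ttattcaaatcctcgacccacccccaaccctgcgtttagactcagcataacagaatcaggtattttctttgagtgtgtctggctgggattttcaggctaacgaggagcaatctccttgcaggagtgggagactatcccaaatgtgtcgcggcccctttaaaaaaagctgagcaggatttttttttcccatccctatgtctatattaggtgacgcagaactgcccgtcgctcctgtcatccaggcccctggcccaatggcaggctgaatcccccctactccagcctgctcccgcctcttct

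In these windows Actc1 and Myl7 each held 1 CArG box, 47 and 61 bases before the start, and no other gene of the 10 did. Of all 27025 genes with a RefSeq start, 1.81% held one in a window of this length. No window of the 10 genes held a MEF2 box, which 0.636% of all genes had. GATA sites were present at Myh6, Tnnt2 and Myl7 (33% of all genes), and TATAAA at Myh6 and Actc1 (15.7%). The TATAAA began at +2 in Myh6 and +34 in Actc1, after the RefSeq start. Searched on both strands as well, the E-box CANNTG was present at 9 of the 10 genes (75% of all genes), CATTCC at 5 (16.6%) and AAGTG at 5 (50%). At Myl7 the match to AAGTG lies within a match to CANNTG, 168 bases before the start. The Myl4 window held 25 CpGs, the most of the 5 printed, against 2 in that of Myh6 and a median of 7 over all windows. A match is only a run of letters, and its absence says that these letters were not found in this window. The annotated spans of Myh6, Tnnt2, Tnni1, Myl4 and Nkx2-5 begin upstream of the starts used here, and bases further upstream were not searched.

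All 10 genes, selected on these levels, had their highest level of the 11 libraries in a cystic EB library. The share of all transcripts that did so was not counted. At 1 RPKM or more were 9 genes in A9 d10, 6 in JN d10, 9 in A9 d15 and 10 in JN d15. The same level was reached by 3 genes in each mesoderm library, 8 in liver A, 4 in liver B, 2 in each E9.25 ysE library and 1, Tnnc1, in E12.5 ysE. The RPKM of the 8 sarcomere genes summed to 190.5 in A9 d10, 41.6 in JN d10, 47.2 in A9 d15 and 441 in JN d15. In the tissues this sum was 41.2 and 26.3 in mesoderm, 23.5 and 11.1 in liver, 6.73 and 6.98 in E9.25 ysE and 15.3 in E12.5 ysE. The sum of mesoderm A came close to the lowest of cystic EBs, and Tnni1 made up most of it.

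**Figure D1:**
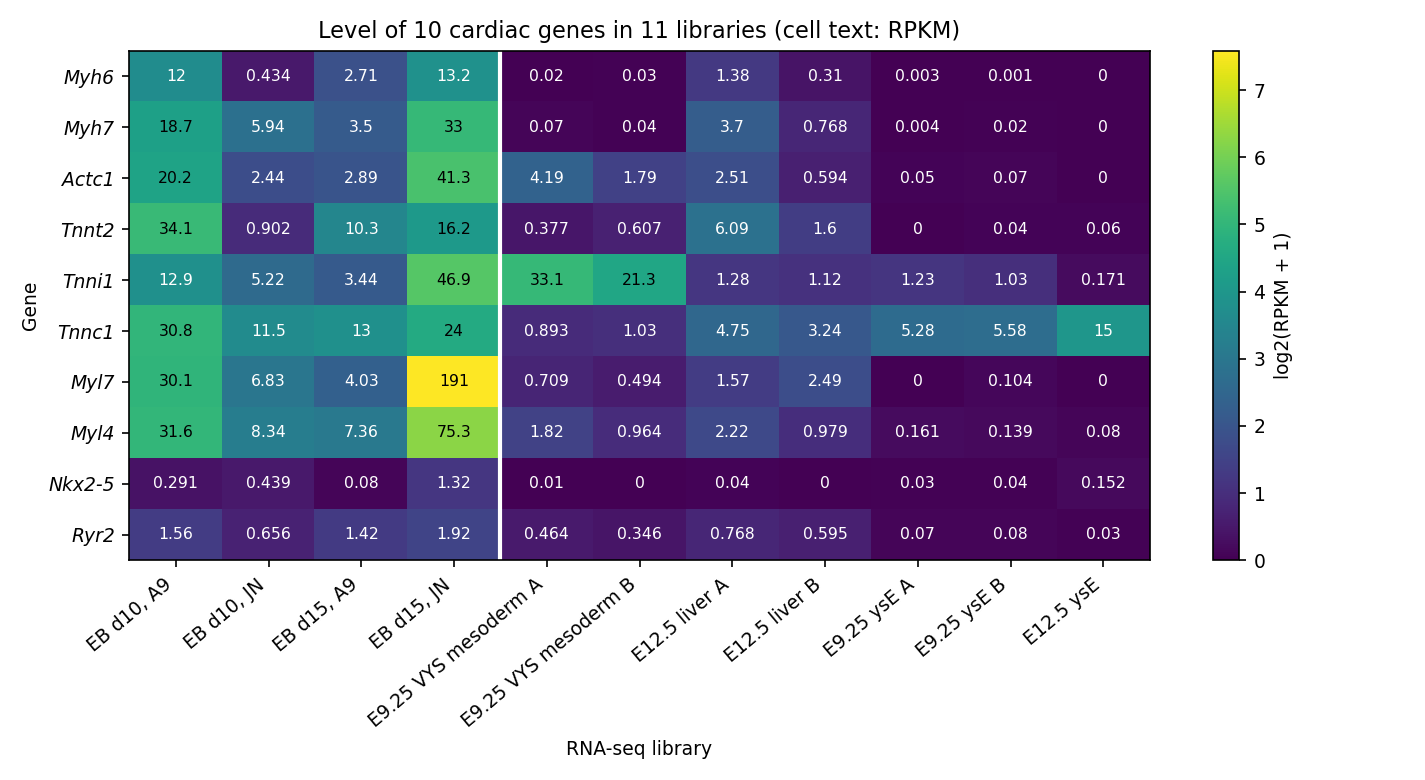
Levels of the 10 genes (rows) in the 11 RNA-seq libraries (columns, cystic EBs left of the white line), with RPKM as cell text and log2(RPKM + 1) as colour. The cystic EB columns are the brightest for most genes, with Myl7 at 191 RPKM in JN d15, while Tnni1 is also bright in mesoderm (33.1 and 21.3) and Tnnc1 in E12.5 ysE (15).

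Of the thick filament, Myh6 (chr14:54941921-54968017) and Myh7 (chr14:54970684-54994626) encode the alpha and beta myosin heavy chains and lie next to each other on chromosome 14. Myh6 stood at 12 RPKM in A9 d10, 0.434 in JN d10, 2.71 in A9 d15 and 13.2 in JN d15, a mean of 7.09 ± 6.46 (SD, n = 4). It was at 0.017 and 0.029 in mesoderm, 1.38 and 0.31 in liver and 0.003 and 0.001 in E9.25 ysE, and had no read in E12.5 ysE. Every cystic EB library lay above mesoderm and ysE, and liver A lay above JN d10, so that liver and cystic EBs overlapped. Myh7 stood at 18.7 RPKM in A9 d10, 5.94 in JN d10, 3.5 in A9 d15 and 33 in JN d15 (mean 15.3 ± 13.6, SD, n = 4). In the tissues its level was 0.071 and 0.041 in mesoderm, 3.7 and 0.768 in liver, 0.004 and 0.023 in E9.25 ysE and 0 in E12.5 ysE. Its order over the groups matched that of Myh6, and here it was A9 d15 that lay below liver A.

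Against the mean of mesoderm, the cystic EB mean was 308-fold higher for Myh6 and 273-fold for Myh7, and against liver 8.39-fold and 6.85-fold. The mesoderm means rest on 12 and 24 counts of Myh6 and 49 and 33 of Myh7. With 1 RPKM added to both means, the log2 difference from mesoderm was 2.98 in place of 8.27 for Myh6. For Myh7 it was 3.95 in place of 8.09. With no read in E12.5 ysE, a floor of 3 counts made the cystic EB mean at least 620-fold higher there for Myh6 and at least 1332-fold for Myh7. Without JN d15, Myh7 was 168-fold above mesoderm, 4.2-fold above liver and at least 817-fold above E12.5 ysE. The folds over liver were 22.9 for Myh6 and 19.9 for Myh7 without liver A, and 5.14 and 4.14 without liver B. Per length, Myh6 made up 39% of the 2 heavy chains in A9 d10 and 43.6% in A9 d15, and 6.8% in JN d10 and 28.6% in JN d15. Myh7 was thus the more abundant chain in all 4 cystic EB libraries, and the A9 libraries had the larger Myh6 share at both days. In liver, at the levels given above, the share was 27.2% and 28.8%. How the authors counted reads that match both heavy chain genes is not stated in the sources used here. Between A9 and JN, clone and library protocol cannot be told apart in this share.

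Myl7 (chr11:5896637-5898782), the atrial regulatory light chain, had the widest range of the 10 genes in cystic EBs. It was at 30.1 RPKM in A9 d10, 6.83 in JN d10, 4.03 in A9 d15 and 191 in JN d15 (mean 58 ± 89.4, SD, n = 4), so the highest library was 47.4-fold above the lowest. All 4 lay above the tissues, which were at 0.709 and 0.494 in mesoderm, 1.57 and 2.49 in liver, 0 and 0.104 in E9.25 ysE and 0 in E12.5 ysE. Myl7 was the one gene of the 10 with more RPKM in liver B than in liver A. The cystic EB mean was 96.4-fold above mesoderm, 28.6-fold above liver and at least 492-fold above E12.5 ysE. Without JN d15 the folds were 22.7, 6.73 and at least 116.

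Myl4 (chr11:104546017-104587215), the atrial essential light chain, stood at 31.6 RPKM in A9 d10, 8.34 in JN d10, 7.36 in A9 d15 and 75.3 in JN d15 (mean 30.6 ± 31.8, SD, n = 4). The tissues lay lower, at 1.82 and 0.964 in mesoderm, 2.22 and 0.979 in liver, 0.161 and 0.139 in E9.25 ysE and 0.079 in E12.5 ysE. No tissue library reached the lowest cystic EB library for either light chain, while liver and mesoderm overlapped each other for Myl4. The mean of cystic EBs was 22-fold above mesoderm, 19.2-fold above liver and 204-fold above E9.25 ysE. Without JN d15 it was 11.3-fold, 9.85-fold and 105-fold above them, and without liver A it was 31.3-fold above liver.

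Of the thin filament, Actc1 (chr2:114047282-114052875) encodes cardiac alpha-actin. It was at 20.3 RPKM in A9 d10, 2.44 in JN d10, 2.89 in A9 d15 and 41.3 in JN d15 (mean 16.7 ± 18.4, SD, n = 4). Mesoderm at 4.19 and 1.79 and liver at 2.51 and 0.594 overlapped the 2 lower cystic EB libraries. E9.25 ysE at 0.054 and 0.068 and E12.5 ysE with no read stayed below all of them. The mean was 5.6-fold above mesoderm, 10.8-fold above liver, 274-fold above E9.25 ysE and at least 334-fold above E12.5 ysE. Without JN d15 these were 2.85-fold, 5.49-fold, 140-fold and at least 170-fold. Without mesoderm A the mean was 9.35-fold above mesoderm, and it was 28.2-fold above liver without liver A and 6.66-fold without liver B. Actin genes are close in sequence. The skeletal actin Acta1 was at 0.839, 5.9, 0.853 and 4.32 RPKM in A9 d10, JN d10, A9 d15 and JN d15, and so higher in JN than in A9 at both days. The smooth muscle actin Acta2, at 67.4, 24.7, 32.4 and 102.5 in the same order, fell in A9 and rose in JN as Actc1 did, and was higher still in mesoderm (133 and 109). How the authors counted reads that match several actin genes is not stated in the sources used here.

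Tnnt2 (chr1:135836315-135852268), cardiac troponin T, was at 34.1 RPKM in A9 d10, 0.902 in JN d10, 10.3 in A9 d15 and 16.2 in JN d15 (mean 15.4 ± 14, SD, n = 4). Its highest cystic EB library was A9 d10 and not JN d15, and JN d10 lay below both liver libraries (6.09 and 1.6). Mesoderm (0.377 and 0.607), E9.25 ysE (0 and 0.043) and E12.5 ysE (0.06) lay below all cystic EBs. The mean was 31.2-fold above mesoderm and 4-fold above liver, and 18.5-fold and 2.37-fold without A9 d10. Over liver it was 9.61-fold without liver A and 2.52-fold without liver B. The level of Myl7 per Tnnt2 was 0.883 in A9 d10 and 0.392 in A9 d15, against 7.57 in JN d10 and 11.8 in JN d15. The 2 clones thus differed more in this ratio than the days did.

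Tnni1 (chr1:135783033-135810989) and Tnnc1 (chr14:31208312-31211729), the slow troponin I and the troponin C shared by heart and slow muscle, were the genes least restricted to cystic EBs. Tnni1 stood at 12.9, 5.22, 3.44 and 46.9 RPKM in A9 d10, JN d10, A9 d15 and JN d15 (mean 17.1 ± 20.3, SD, n = 4), and at 33.1 and 21.3 in mesoderm. The cystic EB mean was 0.629 times that of mesoderm, or 0.264 times without JN d15, and the 2 groups overlapped. Liver (1.28 and 1.12), E9.25 ysE (1.23 and 1.03) and E12.5 ysE (0.171) lay below all cystic EBs, the first 2 groups overlapping each other. Mesoderm also held the fast skeletal troponins Tnnt3 (20.3 and 18.5 RPKM) and Tnni2 (7.84 and 4.48), whereas Tnnt2 stayed under 1 there.

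Tnnc1 stood at 30.8, 11.5, 13 and 24 RPKM in A9 d10, JN d10, A9 d15 and JN d15 (mean 19.8 ± 9.21, SD, n = 4). Its highest cystic EB library was 2.68-fold above its lowest, the smallest such ratio of the 10 genes. E12.5 ysE, at 15 RPKM, lay within that range. E9.25 ysE (5.28 and 5.58), liver (4.75 and 3.24) and mesoderm (0.893 and 1.03) followed in this order without overlap. Tnnc1 was the one gene of the 10 at 1 RPKM or more in all 3 ysE libraries.

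Nkx2-5 (chr17:26838664-26844988) was the lowest of the 10 genes in every cystic EB library but JN d10, where it stood at 0.439 RPKM beside Myh6 at 0.434. It was at 0.291 in A9 d10, 0.08 in A9 d15 and 1.32 in JN d15 (mean 0.532 ± 0.544, SD, n = 4), from 28, 77, 7 and 249 counts in A9 d10, JN d10, A9 d15 and JN d15. E12.5 ysE, at 0.152 from 10 counts, was listed above A9 d15. The other tissue libraries held 0 to 11 counts of it, so neither their order nor their order with A9 d15 can be read at this depth.

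Ryr2 (chr13:11553099-12106945) was at 1.56 RPKM in A9 d10, 0.656 in JN d10, 1.42 in A9 d15 and 1.92 in JN d15 (mean 1.39 ± 0.533, SD, n = 4). Liver A at 0.768 lay above JN d10, and liver B was at 0.595. Mesoderm (0.464 and 0.346), E9.25 ysE (0.067 and 0.081) and E12.5 ysE (0.032) followed, and cystic EBs and liver were the only neighbouring groups that overlapped. The mean was 3.43-fold above mesoderm, 2.04-fold above liver, 18.8-fold above E9.25 ysE and 43.5-fold above E12.5 ysE.

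Counted over the 10 genes, the lowest cystic EB library lay above the highest mesoderm library for 8, Actc1 and Tnni1 being the exceptions. That held for 29.4% of all 24858 transcripts tested. Against E9.25 ysE it was 10 genes (43.6% of all), against E12.5 ysE 8 genes, without Tnnc1 and Nkx2-5 (49.9%), and against liver 5 genes (39.4%). The place of Nkx2-5 in each of these counts rests on 7 counts in A9 d15 against 0 to 11 in the tissue libraries, and cannot be read at this depth. Liver A exceeded liver B in 9 of the 10 genes, and the share of all transcripts that did so was not counted. Liver A was 4.45-fold higher for Myh6, 4.82-fold for Myh7, 4.23-fold for Actc1 and 3.81-fold for Tnnt2. Skeletal muscle genes moved with them, since the 21 of that list summed to 42.3 RPKM in liver A and 16.5 in liver B. Against liver B alone the lowest cystic EB library was higher for 9 genes (45.5% of all). The part of skeletal muscle RNA in the liver values was not tested.

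Within cystic EBs, the order of the days was opposite in the 2 clones. All 10 genes were lower at d15 than at d10 in A9 and higher at d15 in JN. In A9 the d10 level was 7.47 times the d15 level for Myl7, 7-fold for Actc1, 5.35-fold for Myh7, 4.43-fold for Myh6 and 1.1-fold for Ryr2. In JN the d15 level was 30.5 times the d10 level for Myh6, 28-fold for Myl7, 18-fold for Tnnt2, 16.9-fold for Actc1 and 2.09-fold for Tnnc1. The median log2 change from d10 to d15 over the 10 genes was -2.0 in A9 (-2.90 to -0.13) and 3.17 in JN (1.06 to 4.93). Over 17217 transcripts of A9 and 17247 of JN with a defined change, it was -0.09 and 0.12.

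A drop of at least 2-fold in A9 was seen in 9 of the 10 genes, all but Ryr2, and in 4.07% of 17252 transcripts with at least 1 RPKM in a cystic EB library. A rise of at least 2-fold in JN was seen in 10 of 10, against 6.88% of these transcripts. Both held for 9 genes, against 1.05% of transcripts, and for 8 after TMM scaling, when the change of Tnnc1 in JN was 1.94-fold. In 9 genes A9 d10 and JN d15 were the 2 highest cystic EB libraries, Nkx2-5 being the exception. The lowest library was JN d10 for 5 genes and A9 d15 for the other 5. The ribosomal transcript Rn45s held 7.35% of the counts in A9 d15 and 1.92% to 2.94% in the other cystic EB libraries, and its part in the order of the A9 libraries was not tested. Each value is 1 library, so the spread within a clone and day is not known and the difference between the clones was not tested.

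**Figure D2:**
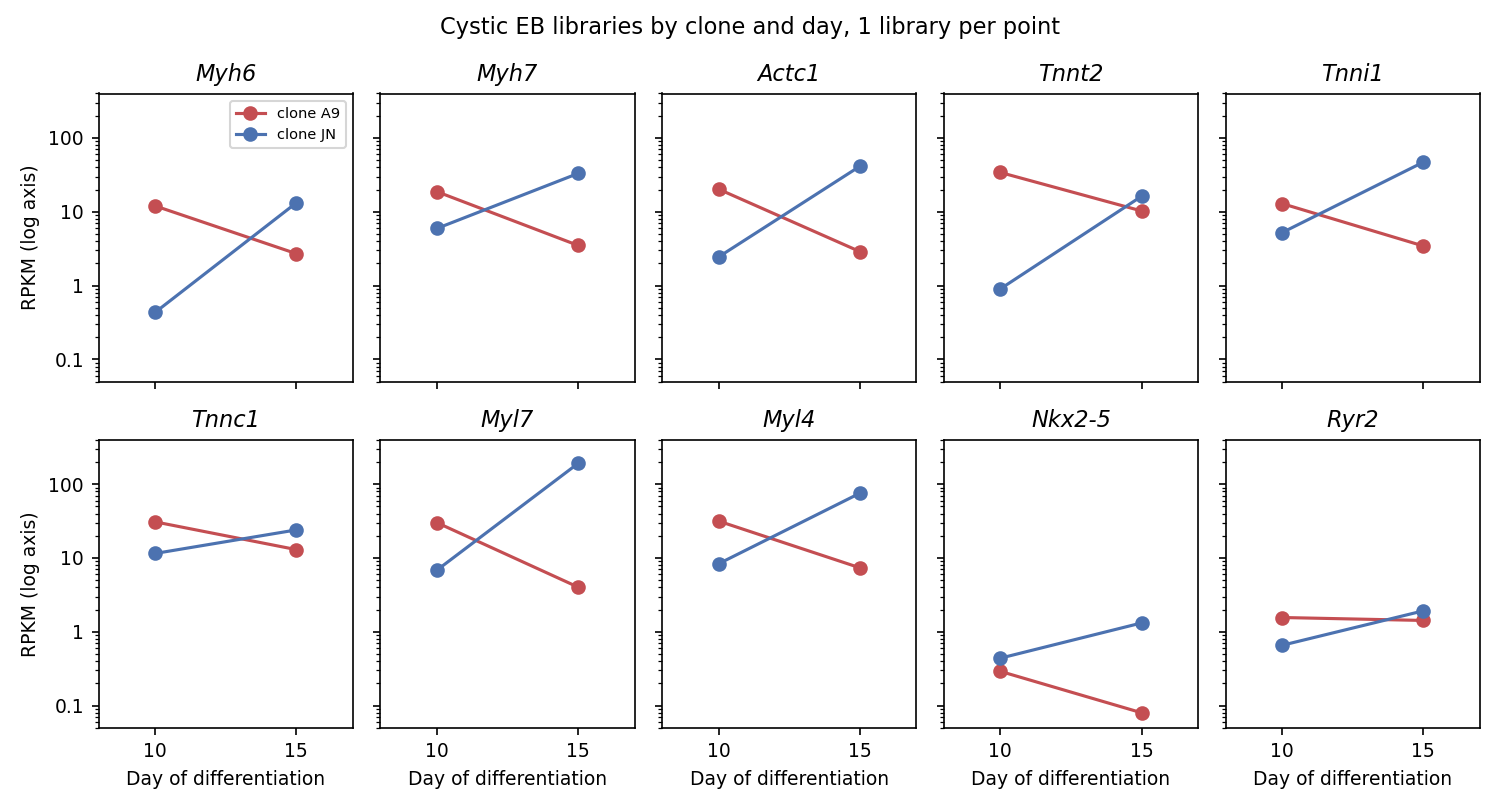
RPKM (log axis) of each of the 10 genes at d10 and d15, with 1 library per point and a line joining the libraries of a clone. The A9 lines fall and the JN lines rise in every panel, from 0.434 to 13.2 RPKM for Myh6 in JN, while the A9 line of Ryr2 is nearly flat (1.56 and 1.42).

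In the test over all transcripts, d15 against d10 of both clones together called 0 of 22452 transcripts (0%) by edgeR's quasi-likelihood test at an FDR of 5%, 304 had an unadjusted p under 0.05, and DESeq2 called 11. None of the 48 tested genes of 4 further cardiac lists, described below, was called, with 4 at an unadjusted p under 0.05 and 0 by DESeq2. JN against A9 called 1773 transcripts higher in JN (7.9%) and 1042 lower (4.64%), and 0 of the same 48 genes. An unadjusted p under 0.05 was seen for 6 of the 48 and for 7264 of all transcripts (32.4%). DESeq2 called 5451 transcripts, among them 5 of the 48 genes, Flnc, Kcnh2, Cox7a1 and Eno3 higher in JN and Tpm1 lower. With the day as a term, edgeR called 4050 transcripts, and of the 48 genes Flnc alone. The calls made without A9 d10 included Eno3 higher, leaving out A9 d15 gave Fabp3 higher, and leaving out JN d15 gave Myl2 and Mybpc3 lower in JN. Each of these fits leaves 1 clone with a single library of 1 day, takes its spread from the other clone alone, and does not separate clone from day. Over all transcripts, the count fell from 2815 to 528 without JN d10 and 836 without JN d15. Of 18 cardiac transcription factors, Gata4 (log2 difference -1.16 ± 0.23, SE, adjusted p = 0.0301) and Hey2 (-1.33 ± 0.29, SE, adjusted p = 0.0375) were lower in JN by edgeR. These were 2 of the 18, and the 10 genes described here were not part of that count. Of the lists of other cell types, 3 of 7 yolk sac endoderm genes (Apoa4, Apob and Cubn) were lower in JN by edgeR. Endothelial Cdh5 and epicardial Aldh1a2 were lower as well, while Acta1 and smooth muscle Tagln were higher.

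The day pattern was looked for in genes outside the 10. Of 53 further cardiac genes on 4 lists (thick and thin filament, Z-disc and intermediate filament, calcium cycling and excitation, natriuretic peptides and energy), 27 reached 1 RPKM in a cystic EB library. These lists were chosen with earlier results of these data known. Of the 27, 13 fell at least 2-fold in A9 and 15 rose at least 2-fold in JN, and 10 did both. Of 17252 transcripts with that level, 4.07% fell in A9, 6.88% rose in JN and 1.05% did both. The 10 further genes that did both were Mylk3, Ttn, Myom1, Tnni3 and Nebl of the filaments, Actn2 and Csrp3 of the Z-disc, Jph2 and Slc8a1 of calcium cycling, and Pgam2. The median log2 change of the 27 was -0.89 in A9 and 1.73 in JN.

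Other cardiac genes moved otherwise in A9. The ventricular essential light chain Myl3 was at 13.9, 11.2, 47.9 and 37.7 RPKM in A9 d10, JN d10, A9 d15 and JN d15, higher at d15 in both clones. The myosin-binding protein Mybpc3, at 5.64, 0.695, 7.97 and 10.8 in that order, and the natriuretic peptide gene Nppb, at 0.872, 1.21, 3.18 and 4.03, also had d15 above d10 in both. The fatty acid carrier Fabp3 was at 58.9, 173.9, 141 and 181 in that order. Hence the ratio of Myl4 to Myl3 was 2.27 in A9 d10 and 0.154 in A9 d15, and 0.745 in JN d10 and 2 in JN d15.

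Among the lists of other cell types, 3 of 7 endothelial genes (Kdr, Tie1 and Emcn) fell at least 2-fold in A9 and rose at least 2-fold in JN. So did 1 of 5 erythroid genes (Hbb-bh1), 1 of 6 smooth muscle genes (Acta2) and 6 of 14 cardiac transcription factors (Gata5, Tbx20, Hand2, Mef2c, Smyd1 and Myocd). None of 5 skeletal muscle, 2 epicardial, 7 yolk sac endoderm or 5 liver genes did. Of all 17252 transcripts with at least 1 RPKM in a cystic EB library, 1.05% did. The summed RPKM of the endothelial list was 50.3, 9.14, 29.9 and 24.9 in A9 d10, JN d10, A9 d15 and JN d15, and that of the skeletal muscle list 15.7, 32.2, 15 and 20.2. The yolk sac endoderm list summed to 492, 149.9, 1306 and 564.9 in the same order, higher at d15 in both clones. The endothelial, erythroid and smooth muscle sums fell in A9 and rose in JN, as the 10 genes did. So did the sum of the cardiac transcription factors, at 89.6, 32.2, 65 and 61.5 RPKM in the same order. The erythroid list summed to 56, 67.9, 12.4 and 135 RPKM in that order, all 5 of its genes that reached 1 RPKM falling at least 2-fold in A9, and the smooth muscle list to 84.5, 67.3, 52.6 and 169. The part of these cell types in the day pattern was not tested.

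**Figure D3:**
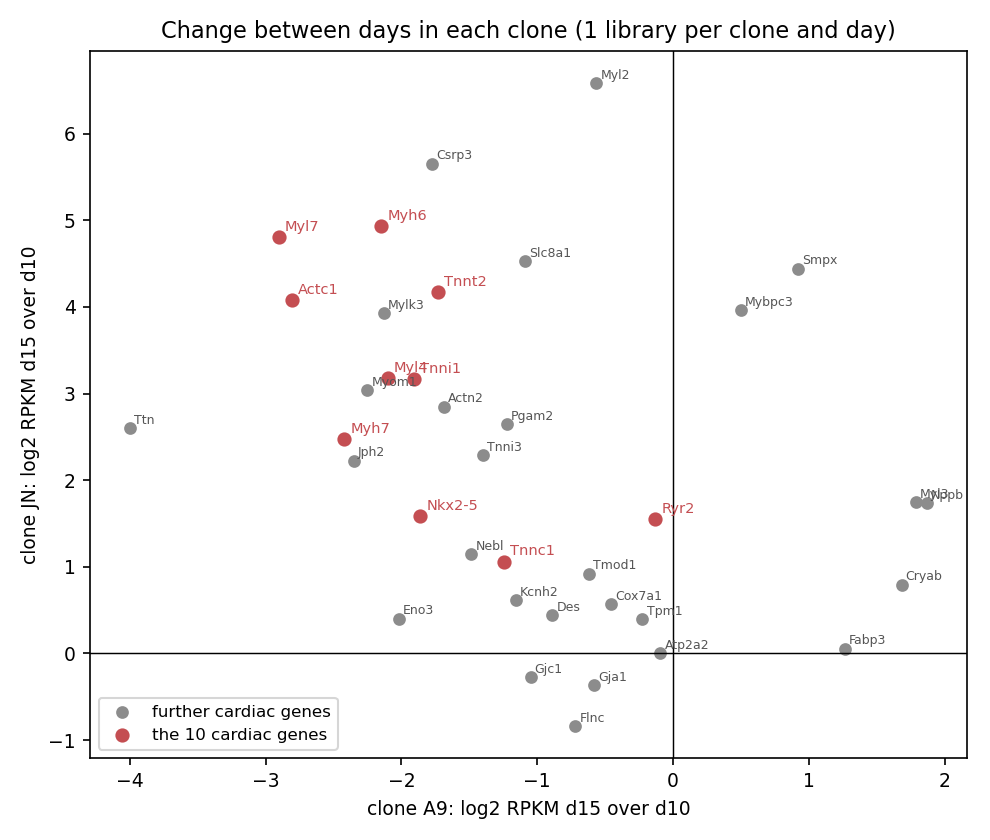
Log2 change in RPKM from d10 to d15 in clone A9 (x axis) and clone JN (y axis) for the 10 genes (red) and 27 further cardiac genes with at least 1 RPKM in a cystic EB library (grey), 1 library per clone and day. All red points lie left of 0 and above 0, while Myl3, Nppb, Mybpc3, Smpx, Cryab and Fabp3 lie to the right of 0.

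How alike the 10 genes were over the 11 libraries was measured by Pearson's r of log2(RPKM + 1), as a description, since libraries of a group share tissue and protocol. The r of a gene with the mean of the other 9 was 0.989 for Myl4, 0.971 for Myl7, 0.96 for Myh7, 0.952 for Myh6, 0.938 for Actc1 and 0.909 for Ryr2. It was lower for Tnnt2 (0.86) and Nkx2-5 (0.784), and lowest for Tnnc1 (0.615) and Tnni1 (0.528), which were also high in a yolk sac layer. Over the 45 pairs the median r was 0.814, from -0.05 for Tnni1 with Tnnc1 to 0.971 for Myl7 with Myl4.

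Of 13058 protein-coding genes with at least 1 RPKM in a library, those most like the mean of the 10 were Axin2 (r = 0.98), Actn2 (0.974), Galnt14 (0.973), Bves (0.967) and Trim55 (0.963). Slc8a1 (0.959), Unc45b (0.958), Csrp3 (0.957), Ppp1r14c (0.956) and Scube1 (0.956) followed. Actn2 (Z-disc actinin), Csrp3 (muscle LIM protein), Trim55 (a ubiquitin ligase of muscle), Unc45b (a myosin chaperone) and Slc8a1 (the sodium-calcium exchanger) are known from heart muscle, and Axin2 is a target of Wnt signalling. Axin2 stood at 3.62, 2.28, 1.74 and 4.68 RPKM in A9 d10, JN d10, A9 d15 and JN d15, and at 0.313 to 1.07 in the tissues. Its cystic EB libraries thus stood in the same order as those of Myl7 and Myl4, over a smaller range.

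The 4 cardiac lists, which hold none of the 10 genes, were then compared between cystic EBs and each tissue with edgeR, all transcripts being fitted together. These tests treat the 4 cystic EB libraries as replicates although they hold 2 clones, 2 days and 2 library protocols. Each tissue was made with 1 protocol, so protocol is partly mixed with tissue in these comparisons. Against E9.25 VYS mesoderm, 16 of 51 tested genes were higher in cystic EBs and 1 was lower, while 34 did not pass. Of all 24858 transcripts, 13.9% were higher and 15% lower. The median log2 difference was 1.49 over the list and 0.03 over all transcripts.

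Of the filament genes 5 of 13 rose, led by the ventricular light chains. Myl3 was at 0.214 and 0.158 RPKM in mesoderm, against the levels in cystic EBs given above (log2 difference 7.09 ± 0.93, SE, adjusted p = 0.000844 by edgeR). Myl2 was at 3.6, 0.124, 2.43 and 11.9 RPKM in A9 d10, JN d10, A9 d15 and JN d15 and at 0 and 0.047 in mesoderm (7.21 ± 2.13, adjusted p = 0.0353), and its SE was the wider. The tropomyosin Tpm1, the most abundant of the list, did not differ detectably (0.00 ± 0.30), at 227 to 434 RPKM in cystic EBs and 372 and 239 in mesoderm. The cardiac troponin I Tnni3, paralog of Tnni1, was at 0.496 to 2.43 RPKM in cystic EBs and did not pass (0.97 ± 0.70, adjusted p = 0.318).

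Of the Z-disc genes 4 of 12 rose, among them Ldb3 (log2 difference 4.24 ± 0.66, SE, adjusted p = 0.00189 by edgeR) and Xirp1 (3.67 ± 1.18, adjusted p = 0.0428), both under 1 RPKM. The intermediate filament desmin, Des, was at 8.57 to 15.9 RPKM in cystic EBs and 8.78 and 2.22 in mesoderm and did not pass (0.98 ± 0.48, adjusted p = 0.15). Of the calcium and excitation genes 3 of 16 rose, Trdn and Gja1 among them, and Gja5 fell. Trdn, at 0.004 to 0.077 RPKM, had no read in mesoderm. The gap junction gene Gja1 was at 36.4 to 63.8 RPKM in cystic EBs against 15.7 and 17.7 (1.48 ± 0.33, adjusted p = 0.0109). Gja5, the connexin of atrial muscle and arteries, was at 0.079 to 0.646 RPKM against 30.3 and 23.1 in mesoderm (-6.91 ± 0.73, adjusted p = 0.000306). Of the natriuretic peptide and energy genes 4 of 10 rose, with Fabp3 at 5.64 ± 0.64 (adjusted p = 0.000436) and myoglobin, Mb, at 4.36 ± 1.35 (adjusted p = 0.0377).

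The count of 16 changed when single libraries were left out. It was 10 without A9 d10, 8 without JN d15, 4 without mesoderm A and 3 without mesoderm B, the last being Myl3, Ldb3 and Fabp3, which were higher in each of these fits. Without a mesoderm library that group is 1 library, assumed to vary like the other groups, and the calls over all transcripts also fell, from 7187 to 2671 without mesoderm A and 2512 without mesoderm B. The assumption is also made below where 1 of 2 tissue libraries is left out.

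Of 18 cardiac transcription factors, 5 were higher than in mesoderm (Mesp1, Irx4, Isl1, Gata4 and Tbx3) and Tbx20 was lower. Gata4 stood at 14.4, 7.02, 18.4 and 8.54 RPKM in A9 d10, JN d10, A9 d15 and JN d15 and at 1.04 and 1.37 in mesoderm (log2 difference 3.21 ± 0.45, SE, adjusted p = 0.00121 by edgeR). Gata4 also serves endoderm and was at 6.68 and 7.82 in E9.25 ysE. Irx4, a factor of ventricular muscle, was at 0.304 to 1.2 RPKM (4.47 ± 0.91, adjusted p = 0.00673). Mesp1, of early mesoderm, was at 0.049 to 0.331 (5.19 ± 1.38, adjusted p = 0.0285), and Tbx20 at 1.72 to 5.15 against 16.2 and 16.7 (-2.34 ± 0.39, adjusted p = 0.0026).

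Marker lists of other cell types moved as well in this comparison. All 11 erythroid genes, 6 of 8 endothelial genes, 3 of 9 smooth muscle genes and 3 of 7 yolk sac endoderm genes were lower in cystic EBs. Hba-a1, Hbb-y and Hbb-bh1 were each over 9 log2 units lower, as Hbb-y shows with 4.69 to 42.4 RPKM against 18741 and 13955. Endothelial Kdr (2.36 to 19 RPKM against 47.1 and 47), Tie1 and Emcn were lower, and so were smooth muscle Myl9 and Actg2. Of 19 skeletal muscle genes, 5 were higher (Acta1, Ryr1, Actn3, Mylpf and Tnnt1) and 3 lower (Cacna1s, Tnnt3 and Tnni2), while Myod1 was at 0.028 RPKM or less in cystic EBs. Epicardial Tbx18 was higher and Upk3b lower, and of the liver list Ahsg was higher and Serpinf2 lower.

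Against E12.5 liver, 11 of the 51 further cardiac genes were higher in cystic EBs and 9 lower, while 24.6% of all transcripts were higher and 20.9% lower. The median log2 difference was 0.82 over the list and 0.20 over all transcripts. Myl3 (5.0 ± 0.83, SE, adjusted p = 0.00126 by edgeR) and Fabp3 (6.79 ± 0.69, adjusted p = 0.000101) were again among the higher genes. Of the 9 lower genes 5 were of calcium cycling and excitation, Casq2, Kcnj5, Gja5, Cacna1g and Atp2a2. Without liver A the count was 7 higher and 5 lower, and without liver B 6 higher. Of the skeletal muscle list 8 of 19 were lower in cystic EBs and none higher, among them Myog at 0.012 to 0.053 RPKM against 1.15 and 0.31. Of the cardiac transcription factors 11 of 18 were higher and none lower, Gata4 (2.32 ± 0.43, adjusted p = 0.00223) and Tbx20 (2.51 ± 0.46, adjusted p = 0.00218) among them. Lower were also 10 of 11 erythroid, 5 of 7 liver and 3 of 8 endothelial genes. Of 9 smooth muscle genes 2 were higher and 3 lower, and of 7 yolk sac endoderm genes 2 were higher and 2 lower.

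Against E9.25 ysE, 34 of the 51 genes were higher and 2 lower (4 lower with the replicate letter as a block), against 27.1% and 23.2% of all transcripts, with a median log2 difference of 3.35 against 0.17. Every list took part, with 9 of 13 filament, 7 of 12 Z-disc, 11 of 16 calcium and excitation and 7 of 10 natriuretic peptide and energy genes higher. Without E9.25 ysE A the count was 23 and without ysE B 21. Skeletal muscle (7 of 19) and smooth muscle genes (5 of 9) were also higher, and all 7 yolk sac endoderm genes and 10 of 11 erythroid genes were lower.

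Against E12.5 ysE, which was 1 library assumed to vary like the others, 21 genes were higher and 2 lower, against 21.1% and 18.8% of all transcripts. The median log2 difference was 3.06 against 0.42. The E12.5 ysE library was the only one made without strand information, so tissue and protocol cannot be told apart in this comparison. Myl3 was again higher (8.67 ± 1.52, SE, adjusted p = 0.00194 by edgeR), as were 12 of 18 cardiac transcription factors. All 7 yolk sac endoderm genes were lower, Afp with a log2 difference of -7.54 ± 1.29 (SE), and so were all 7 liver genes. Higher in cystic EBs were also 5 of 8 endothelial, 5 of 9 smooth muscle, 5 of 19 skeletal muscle, 2 of 6 epicardial and 2 of 11 erythroid genes, and their part in these counts was not tested. These 4 comparisons share the cystic EB libraries, so their counts are not independent of each other.

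**Figure D4:**
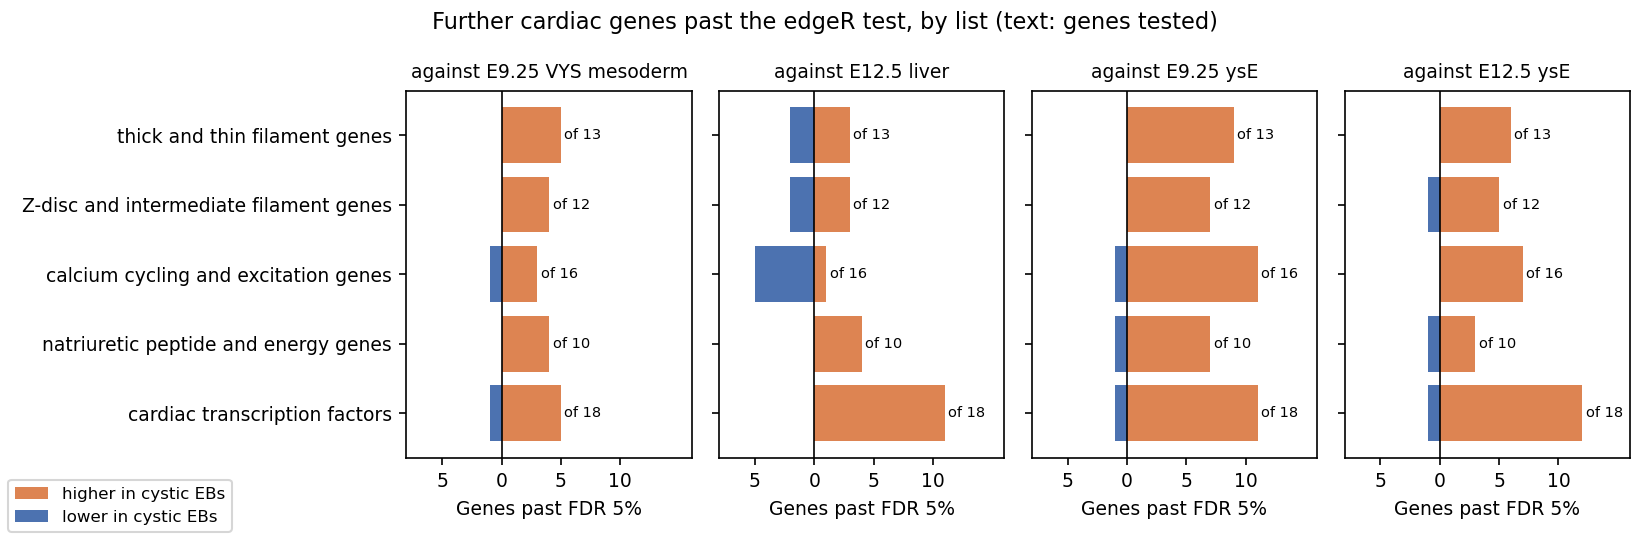
Number of genes of 5 lists that were higher (orange, to the right) or lower (blue, to the left) in cystic EBs than in each tissue by edgeR at an FDR of 5%, with the number tested as text. Filament genes are 5 of 13 higher against mesoderm, 3 against liver, 9 against E9.25 ysE and 6 against E12.5 ysE, and the longest blue bar is that of 5 calcium and excitation genes against liver.

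Reads over exon parts, deposited for the 4 cystic EB libraries and 1 E9.25 ysE library with reads, show how the transcripts were covered. Of 309 parts of the 10 genes, 291 had a read in A9 d10, 283 in JN d10, 267 in A9 d15 and 301 in JN d15, against 102 in E9.25 ysE A. The exon part with the most reads held a larger share of the reads in both A9 than in both JN libraries for 8 of the 10 genes, Actc1 and Nkx2-5 being the exceptions. It did so for 62.2% of 16497 genes with at least 2 parts and at least 5 reads in each of these libraries. For Myl7 it held 56.1% and 54.7% in A9 d10 and d15 against 20.6% and 23.2% in JN, and for Tnnc1 39% and 36.9% against 21.2% and 20.2%. For Actc1 the shares were 24.3% to 25.9% in all 4. Clone and protocol cannot be told apart in this difference.

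DNA methylation was read from bisulfite sequencing as the percent of methylated reads at CpGs, summed over the gene body or 1 kb to either side of the start. A CpG rested on a mean of 1.80 to 2.21 reads, so features with under 5 reads were left out. Intervals below are 95% Wilson intervals, which cover counting error only and not which CpGs were read in each library. Over all CpGs, 87% and 82.6% of reads were methylated in cystic EBs, 77.6% and 79.8% in liver and 67.8% and 60.1% in ysE (CxF and FxC). Gene bodies could be compared for 8 of the 10 genes. Ryr2 was not analysed here, and Myl7 had only 4 and 2 reads in cystic EBs.

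Both cystic EB libraries were more methylated than both ysE libraries over 6 of the 8 bodies, which held for 64% of 19493 gene bodies. They were also above both liver libraries over 6 of 8, against 37.1% of 19015. Over Myh6 the share was 88.1% (82.2 to 92.3) and 87.7% (80.9 to 92.3) in cystic EBs, 77.4% and 77.7% in liver and 63.8% and 50.5% in ysE. Tnnt2 stood at 90.1% and 88.1% in cystic EBs, 63.5% and 68% in liver and 72.7% and 64.5% in ysE. At Actc1 the shares were 88% and 95% in cystic EBs, 57.1% and 83.3% in liver and 57.1% and 40% in ysE, from 10 to 25 reads. All 16 and all 8 reads over Tnnc1 were methylated in cystic EBs, against 30% and 40% of 10 reads each in liver. Of the exceptions, Myh7 stood at 93.2% and 77.7% in cystic EBs, above ysE (48.6% and 73.5%) but not above both liver libraries (77.8% and 83.1%). Myl4 stood at 79.4% and 69.1%, overlapping both liver (78.7% and 80.1%) and ysE (59.9% and 70.6%).

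Liver had low methylation over Nkx2-5, as it had over Tnnc1. Over the body of Nkx2-5 in liver, 8.33% (1.49 to 35.4) of 12 reads and 30% (18.1 to 45.4) of 40 reads were methylated. In ysE the shares were 69.1% and 72.3%, and in cystic EBs 83.6% (76.4 to 88.9) and 59.3% (46 to 71.3), so the 2 cystic EB libraries lay on either side of ysE. CpG sites, each strand counted apart, were not matched between libraries. The reads over the body of Nkx2-5 lay at 8 and 34 sites in liver, 73 and 29 in ysE, and 75 and 31 in cystic EBs. Around its start, 84.6% of 26 and 66.7% of 18 reads were methylated in cystic EBs, 95.7% of 47 and 82.4% of 17 in ysE, and 20% of 5 and 60% of 10 in liver. Myl4, whose start is rich in CpG, had 44.4% of 9 and 13.3% of 15 reads methylated there in cystic EBs, 37.5% of 16 and 44.4% of 27 in liver, and 14.3% of 42 and 66.7% of 6 in ysE. The windows around these starts lie within the spans counted as the bodies of Nkx2-5 and Myl4, so these reads are also body reads. Only 3 starts had at least 5 reads in all 6 libraries, Myh7, Myl4 and Nkx2-5. Cystic EBs were above both ysE libraries at 1 of them, Myh7 (87.5% of 16 and 94.1% of 17 reads against 58.3% of 12 and 71.4% of 7), and above both liver libraries at 1, Nkx2-5. Over all gene starts with that many reads this held for 41.7% of 8434 against ysE and 27.2% of 8737 against liver.

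**Figure D5:**
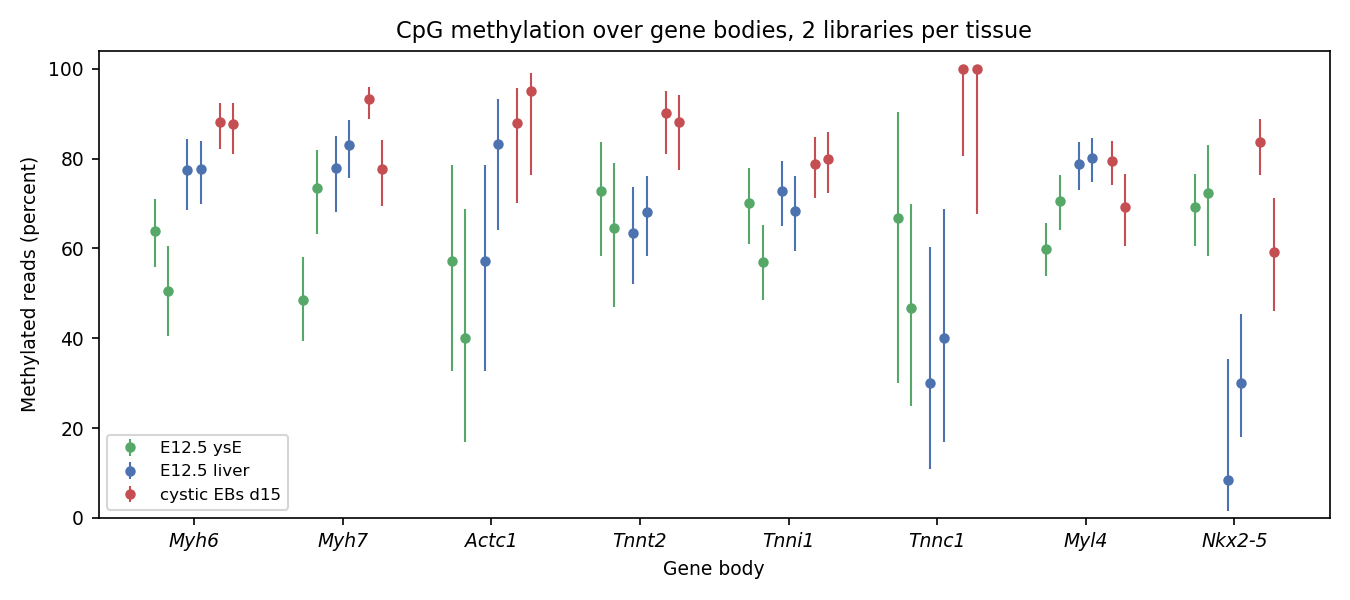
Percent of methylated CpG reads over the gene bodies of 8 of the 10 genes, with 2 libraries each of E12.5 ysE (green), E12.5 liver (blue) and d15 cystic EBs (red), and 95% Wilson intervals as bars. Both red points lie above all other points for Myh6, Actc1, Tnnt2, Tnni1 and Tnnc1, and Nkx2-5 has its lowest points in liver (8.33% and 30%).

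H3K4me3, a mark of active and poised promoters, was measured in whole E12.5 VYS, where 22343 peaks were listed, and not in cystic EBs. A peak lay within 1 kb of the start of 3 of the 10 genes, against 46.4% of 27025 genes. The peak at Myl4 overlapped the start and had a score of 3100, -10 log10 of the p-value, where the highest score in the list was 3233. At Ryr2 the nearest peak was 117 bases away (score 1352) and at Tnnc1 919 bases (score 3100). Myl4 and Ryr2 had 25 and 18 CpGs in the 300 bases around the start, and Tnnc1 had 1 there. Tnnc1 was the gene of the 10 with the highest level in E12.5 ysE. Whether CpG content or level bears on these peaks, or the Tnnc1 peak belongs to another gene, was not tested. For the other 7 genes the nearest peak was 8660 bases (Nkx2-5) to 121561 bases (Actc1) from the start.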

How the data were processed

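RNA-seq of 11 libraries, bisulfite sequencing of 6 and H3K4me3 ChIP-seq of 1 sample were used. The authors aligned reads with GSNAP to mm10 and deposited raw counts and RPKM per RefSeq transcript, made with RSeQC and custom scripts. Isoforms of a gene share reads, and the total used for the RPKM is not given in the sources used here. Exon-part counts were deposited for 4 cystic EB libraries and 1 E9.25 ysE library with reads, and a further file that holds only zeros was not used. For bisulfite data the authors called methylation with BisSNP and deposited, for each CpG and strand, its percent methylation and read count. H3K4me3 peaks were deposited with their MACS (1.4.2) score. Intergenic repeats were not analysed here.

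Counts were tested in R 4.3.3 with edgeR 4.0.16 (filterByExpr, TMM factors 0.766 to 1.21, quasi-likelihood test on 5 groups, Benjamini-Hochberg adjustment, FDR 5%), leaving 24858 transcripts over all libraries and 22452 over cystic EBs. The biological coefficient of variation was 0.3995. An SE given with a log2 difference is the size of that difference divided by the square root of the test's F statistic. DESeq2 1.42.0 was an alternative, and the scripts were tested on simulated data. P-values measure the spread between these libraries. Levels are deposited RPKM, and a fold against a group without a read uses a floor of 3 counts. Other values were computed in Python 3.11.15. Promoter windows are from RefSeq (GRCm38.p6), and all 10 genes had one.

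The replicate letters A and B stand for the same clone at d10 and d15. Deviations of A from B correlated with r = 0.598 between d10 and d15 and -0.03 to 0.135 between other groups.

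The 10 genes and the gene lists were chosen with earlier results of these data known. Named were, in each list, the 2 largest rises and falls against mesoderm past the FDR and the most abundant gene in cystic EBs, the 10 genes most like the mean of the 10, and close paralogs. Ttn, Actn2, Slc8a1 and other list genes named with a count or a day pattern were added after their values were seen. Some genes of the lists are counted but not reported here by name.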

Additional observations from a re-analysis of the deposited data

Results flagged for a closer look

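In cystic EBs, Myl7 in JN d15 lay far from the other 3 libraries, the gap to the next library taking 0.861 of the whole range. The 4 libraries are 2 clones at 2 days and the genes were selected on these levels, so the gap is a description and no test. The change from d10 to d15 went down in A9 and up in JN for all 10 genes, with 1 library per clone and day, and the difference was not tested. On the log2 scale, the change in JN minus that in A9 was 7.71 for Myl7, 7.08 for Myh6, 6.89 for Actc1, 5.90 for Tnnt2, 5.28 for Myl4, 5.08 for Tnni1, 4.89 for Myh7, 3.45 for Nkx2-5, 2.31 for Tnnc1 and 1.68 for Ryr2.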

How the results depend on the processing

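Precision was limited by 1 to 4 libraries per group, by clone and library protocol that cannot be told apart, and by a mean of about 2 reads per CpG. With an FDR of 1%, the transcripts called against mesoderm, liver, E9.25 ysE and E12.5 ysE numbered 3240, 6793, 8097 and 5794 (7187, 11297, 12500 and 9932 at 5%) and 632 between the clones. The further cardiac genes higher were then 4, 6 and 13 against mesoderm, liver and E12.5 ysE (16, 11 and 21 at 5%). Fitting only cystic EBs and E12.5 ysE called 6344. DESeq2 called 11 transcripts between the days and 5451 between the clones, 5 of them further cardiac genes, and the day as a term 1. Leaving out 1 library at a time gave 2512 to 7772 transcripts against mesoderm with 3 to 18 cardiac genes higher, 6668 to 12055 against liver with 6 to 15, and 7603 to 12845 against E9.25 ysE with 21 to 33. It gave 528 to 2765 transcripts between the clones with 0 to 2 cardiac genes. The genes above liver were 9 without liver A, an alternative chosen after seeing the data. Starts more methylated in cystic EBs were 0 against ysE and 0 against liver with at least 10 reads, when 1 start was left. With a 0.5 kb window 0 starts had enough reads, which gave no value. With the peak overlapping the start, 1 gene had H3K4me3. The pairing of replicate letters as a block gave 8047 transcripts and 18 cardiac genes against mesoderm, 11644 and 11 against liver, 12968 and 34 against E9.25 ysE, and 0 between the days. Against E9.25 ysE it gave 4 cardiac genes lower in place of 2, and it changed no other of these counts by over 1.5 times. With dUTP libraries only, and so cystic EBs of JN alone, 17 cardiac genes were higher and 2 lower against mesoderm. Against E9.25 ysE these were 31 and 2. With ScriptSeq libraries only, and so cystic EBs of A9 alone, 8 were higher and 8 lower against liver. Of the 10 genes' log2 differences in group means, 235 stayed within 1 SD of the cystic EB libraries on the log2 scale, a wide margin where JN d15 stands apart, 21 moved when 0.1 or 1 RPKM was added, and 0 reversed. The differences of Myh6 and Myh7 from mesoderm were among those that moved.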
